A study of Homo sapiens with 4 samples.

Results

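Histone cluster genes encode the linker histone H1 and the core histones H2A, H2B, H3 and H4, and lie mostly together in groups on chromosomes 6 and 1. They were taken from the gene table as the rows whose symbol begins with HIST1H, HIST2H, HIST3H or HIST4H, leaving out pseudogene symbols ending in P or PS and a number. This gave 43 genes of the 20329 analysed, out of 46 rows whose symbol begins that way. They comprised 2 H1, 11 H2A, 14 H2B, 7 H3 and 9 H4 genes. A mean of at least 1 FPKM (fragments divided by the length of the gene model and by the size of the library) over the libraries was needed for testing, and 23 members passed it (2 H1, 4 H2A, 9 H2B, 2 H3 and 6 H4). The other 20 are described by their values.

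RNA came from BM1 (1833) and LM2 (4175), human triple-negative breast cancer lines derived from MDA-MB-231 and described by the labels as derivatives from metastasis to bone (BM1) and lung (LM2). A control library was made for each line from cells stably carrying a non-specific shRNA, and a knockdown library from cells stably carrying an shRNA against hnRNPM, an RNA-binding protein that takes part in splicing. All 4 cultures therefore carried a lentiviral shRNA vector, and all were grown in DMEM with serum. The libraries were stranded, paired-end and made from polyA-purified RNA. With 1 library per line and treatment, a change within a line has no replicate check. The labels do not say whether more than 1 shRNA sequence or clone stood behind a line.

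Most messenger RNAs end in a polyA tail. Replication-dependent histone mRNAs are the known exception: they are made in S phase, and their 3′ end is cut just after a short stem-loop that is bound by the stem-loop binding protein SLBP. Some histone cluster genes also give polyadenylated transcripts, which are known from differentiated and slowly dividing cells. A library made from polyA-purified RNA therefore holds mainly the polyadenylated part of the histone message, and the values here are no measure of all histone mRNA. In bulk RNA, fewer cells that express a gene and less RNA per cell cannot be told apart.

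The stem-loop is printed here because it is the element that sets these genes apart from other mRNAs. It was searched after the stop codon in the longest coding transcript of GENCODE 29 (GRCh38) on the transcript strand, and was found in 17 of the 38 members that this annotation calls protein-coding. In 20 it was found in any annotated transcript. Across the 19659 protein-coding genes examined, 31 had it in their longest coding transcript. The stem-loops below are 16 bases long, and capitals mark both arms of the stem.
HIST1H2AC: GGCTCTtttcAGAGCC
HIST2H2BE: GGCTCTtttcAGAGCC
HIST1H4H: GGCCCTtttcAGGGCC
HIST1H4I: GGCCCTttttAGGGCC
HIST1H2AG: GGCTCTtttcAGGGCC
The H2A and H2B genes HIST1H2AC and HIST2H2BE carry the same 16 bases, the H4 genes differ from them in the stem, and HIST1H4I also differs from HIST1H4H in the loop. HIST1H2AG joins the left arm of the H2A and H2B form to the right arm of the H4 form. In HIST1H2AC the stem-loop began 43 bases after the stop codon and was followed by 1114 further annotated bases. In HIST2H2BE it began 56 bases after the stop codon and was followed by 1729 bases, so both models run far past the site where a replication-dependent message ends. More than 100 bases followed the stem-loop in 13 members. The polyA signal AATAAA, searched on the transcript strand, stood in the last 50 bases of 15 of the 38 coding members and of 59.9% of all protein-coding genes examined. In 15 members, HIST1H1C and HIST1H2BK among them, the longest model was the coding sequence alone, as in 2.06% of protein-coding genes. Fragments that lie wholly outside such a model are not part of its value. Nor could the stem-loop or AATAAA be found in it, because it has no bases after the stop codon. Both counts therefore come from the 23 members whose longest model has untranslated bases. The 15 of 38 can thus not be set against the 59.9% of all protein-coding genes.

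The promoters of 3 members on which the results turn are printed as RefSeq gives them (GRCh38.p14), with capitals for the motifs searched on both strands: TATAAA (the TATA box), CCAAT (the CCAAT box), the octamer ATTTGCAT of H2A and H2B promoters, and AAACACA, an element of H1 promoters. Each runs 5′ to 3′ on the strand of its gene, which is the minus strand for all 3. They lie at chr6:27146809-27147108 (HIST1H2BK, the most abundant member), chr6:26056421-26056720 (HIST1H1C, the next) and chr1:149886633-149886932 (HIST2H2BE, the member called in the knockdown).
HIST1H2BK: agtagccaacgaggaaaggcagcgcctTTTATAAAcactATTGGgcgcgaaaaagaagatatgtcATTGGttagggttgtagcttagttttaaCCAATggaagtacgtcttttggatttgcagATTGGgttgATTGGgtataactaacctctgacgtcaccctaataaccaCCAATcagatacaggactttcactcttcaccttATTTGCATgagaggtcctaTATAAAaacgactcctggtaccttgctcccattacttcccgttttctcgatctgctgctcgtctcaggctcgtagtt
HIST1H1C: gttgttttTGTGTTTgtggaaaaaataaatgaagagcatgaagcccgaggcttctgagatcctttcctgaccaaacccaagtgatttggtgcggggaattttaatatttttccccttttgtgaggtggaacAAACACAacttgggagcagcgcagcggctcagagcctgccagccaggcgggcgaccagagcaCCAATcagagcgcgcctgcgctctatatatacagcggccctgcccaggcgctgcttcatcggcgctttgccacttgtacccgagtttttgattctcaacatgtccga
HIST2H2BE: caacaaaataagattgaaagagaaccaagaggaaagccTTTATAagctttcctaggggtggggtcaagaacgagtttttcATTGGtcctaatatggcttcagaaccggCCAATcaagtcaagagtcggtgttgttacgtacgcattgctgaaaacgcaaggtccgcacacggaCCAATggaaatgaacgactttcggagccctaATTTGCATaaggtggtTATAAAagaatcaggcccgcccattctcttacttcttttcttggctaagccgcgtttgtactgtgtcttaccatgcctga
RefSeq had a promoter for 33 members. TATAAA was in 25 of them and in 11.95% of all 27305 promoters, and CCAAT in 27 of them and in 35.7% of all promoters. The octamer was in 12 members, 6 of 9 H2A and 6 of 8 H2B promoters and none of the H1, H3 or H4 promoters, against 1.80% of all promoters. The windows of HIST1H2AG and HIST1H2BJ overlap, as do those of HIST1H2AM and HIST1H2BO and of HIST2H2AC and HIST2H2BE. In each of these pairs the same octamer was counted for both genes, so the 12 are not separate stretches. AAACACA was in 5 members, with both H1 promoters among them, against 5.76% of all promoters. A match describes the letters of the window and is no evidence of binding.

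By an estimate from the spacing of low values the libraries held between 22780940 and 41502930 fragments, and FPKM summed to between 434567 and 455114. HNRNPM, the targeted gene, had 171 FPKM with control shRNA and 28.4 with hnRNPM shRNA in BM1, and 132 against 20.3 FPKM in LM2. Knockdown therefore left 16.6% and 15.4% of its level, in the direction of the labels. Mitochondrial genes took 8.80% to 9.31% of the FPKM sum in the controls and 11.8% to 12.8% in the knockdowns. VIM, CD44 and EGFR, markers of the parental line, were present at 31.4 FPKM or more in every library. CDH1, low in the parental line, was at 0.489 FPKM in control and 4.08 in knockdown cells of BM1, and at 0.170 against 2.30 FPKM in LM2. GATA3 and EPCAM were between 2.501 and 4.59 FPKM, and the leukocyte and endothelial markers were not among the rows of the table used here.

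The 43 members together made up 380 FPKM in control and 261 FPKM in knockdown cells of BM1. In LM2 the same sum was 85.6 FPKM in control and 157 FPKM in knockdown cells. These sums are 0.0834%, 0.0598%, 0.0197% and 0.0359% of all FPKM in the same order. The sum in the LM2 control library was thus the lowest of the 4, and the sum in the BM1 control library was 4.43 times as high. The knockdown library of BM1 stood at 0.687 of its control and that of LM2 at 1.83 times its control. HIST1H2BK and HIST1H1C held 59.9% to 73.2% of the sum. Without this pair of genes the ratios of knockdown to control were 0.923 in BM1 and 1.81 in LM2, and the BM1 control was 2.96 times the LM2 control, so the size of the BM1 ratio rested largely on them.

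**Figure D1:**
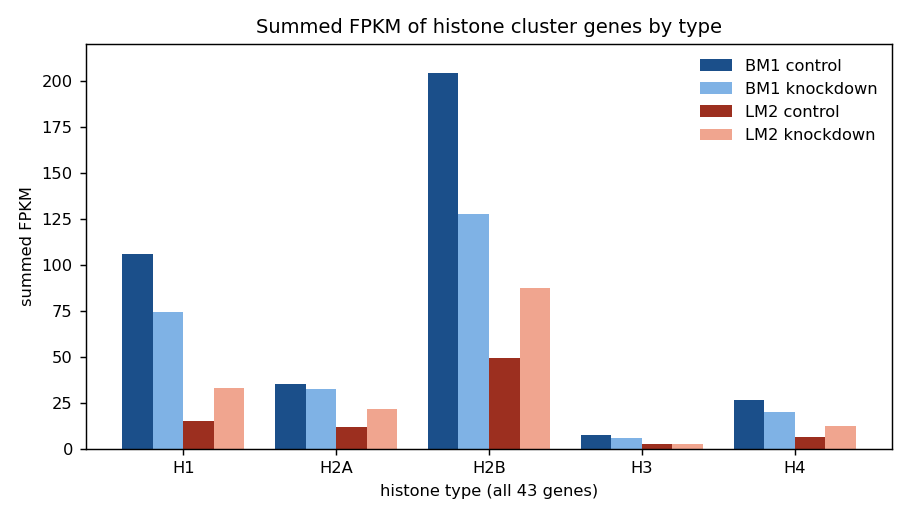
Summed FPKM of all 43 members by histone type (x axis), 1 bar per library, without error bars because each group is 1 library. The LM2 control bar lies below the LM2 knockdown bar for H1, H2A, H2B and H4, and the BM1 control bar is the highest for every type.

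By type, the ratio of knockdown to control sums in LM2 was 2.14 for H1, 1.85 for H2A, 1.77 for H2B, 1.88 for H4 and 0.862 for H3. In BM1 it was 0.705 for H1, 0.921 for H2A, 0.624 for H2B, 0.801 for H3 and 0.759 for H4. H3, the least abundant type, was the type whose sum was below its control in both lines, with 7.61 and 6.09 FPKM in BM1 and 2.72 and 2.34 FPKM in LM2.

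The knockdown contrast asked which members differed between knockdown and control over both lines. HIST2H2BE, an H2B gene on chromosome 1, rose in both lines. Its level was 0.504 FPKM in control and 1.98 in knockdown cells of BM1, and 0.661 against 3.46 FPKM in LM2. Both knockdown libraries lay above both controls. On the log2(FPKM + 1) scale, which understates changes of low genes, the average change was 1.21 ± 0.26 (SE), with an adjusted p of 0.0367 by limma, and the gene was higher in knockdown in both lines. It was the 1 member called among 23, with 0 called lower, where 5.47% of all 13928 tested genes were called (2.71% higher and 2.76% lower). At an unadjusted p below 0.05, limma gave 3 members higher and 0 lower, where 12.4% of all tested genes were higher and 12.5% lower, so the share of members that were higher is near that of all genes. The call of HIST2H2BE was lost with a pseudocount of 0.1 (limma adjusted p 0.0729), with quantile normalization (0.0989), with no filter on low values (0.22), without the cell line as a block (0.353) and when any library was left out, a fit that also drops the block. Its adjusted p over the settings run ranged from 0.0317 to 0.714. The values stood for about 34.5, 98.9, 60.2 and 207 fragments by the depth estimate. The neighbour that starts 293 bases away on the other strand, HIST2H2AC, had 2.18 FPKM in control and 1.25 in knockdown cells of BM1, against 1.08 and 0.814 in LM2, lower in the knockdown library of both lines.

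HIST1H2BC and HIST1H2AC, a divergent H2B and H2A pair on chromosome 6 whose starts lie 219 bases apart, had the next largest average increases. HIST1H2AC had 14.0 FPKM in control and 17.2 in knockdown cells of BM1, against 3.54 and 8.67 in LM2. HIST1H2BC had 2.504 FPKM in control and 3.91 in knockdown cells of BM1, against 0.932 and 3.08 in LM2. Both were higher in knockdown in each line, but neither passed the test (limma adjusted p 0.181 and 0.124). The largest average decreases were in HIST1H3C, HIST2H2AC and HIST2H4B, and none passed the test either. HIST1H3C, an H3 gene, had 3.14 FPKM in control and 1.33 in knockdown cells of BM1, against 0.807 and 0.445 in LM2.

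On the log2(FPKM + 1) scale, 0 members differed by 2-fold or more between the BM1 libraries, where 16.3% of all tested genes did (10.1% higher and 6.2% lower). That count rests on the pseudocount: with 0.1 it was 4 members (3 higher and 1 lower), where 23.03% of tested genes passed. By the plain ratio of knockdown to control FPKM, HIST2H2BE stood at 3.93, HIST2H2BA at 2.56, HIST1H3B at 2.45 and HIST1H3C at 0.424 in BM1. In LM2, 6 members were at least 2-fold higher in the knockdown library and 0 were lower, where 3.83% of tested genes were higher, 4.24% lower and 8.06% either. On the log2(FPKM + 1) scale these were HIST2H2BE (1.43), HIST1H4I (1.34), HIST1H2BD (1.13), HIST1H2AC (1.09), HIST1H2BC (1.08) and HIST1H1C (1.07). The gene intervals of HIST1H1C, HIST1H2BC and HIST1H2BD overlap another listed gene, and 3 members at 2-fold remain without such genes. Of the 23 tested members, 9 were higher and 14 lower in the BM1 knockdown library (50.3% and 49.7% of all tested genes), with a median of -0.34 against 0.0047 for all tested genes. In LM2, 16 were higher and 7 lower (46.5% and 53.5% of all tested genes), with a median of 0.48 against -0.038. With quantile normalization 20 were higher and 3 lower in LM2, and 7 higher and 16 lower in BM1. Over all 43 members the medians were -0.17 in BM1 and 0.11 in LM2, on a scale where the change of a low gene is small by construction. These medians describe single pairs of libraries and were not tested.

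**Figure D2:**
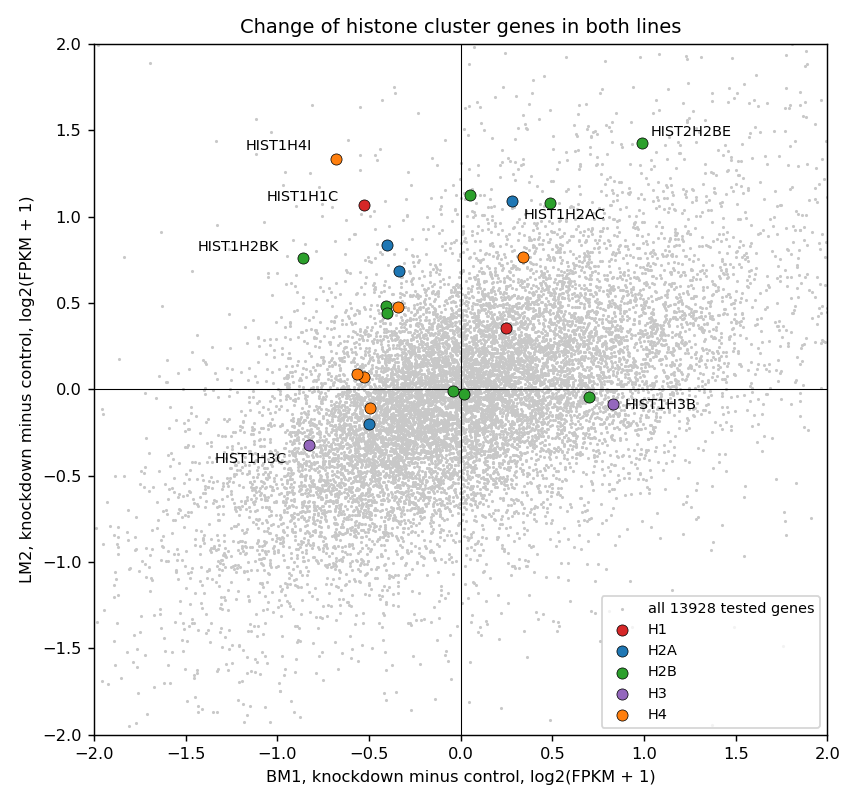
Change in BM1 (x axis) and LM2 (y axis), knockdown minus control on log2(FPKM + 1), for 23 members coloured by type and all 13928 tested genes in grey, of which 305 lie outside the axes. HIST2H2BE is at the upper right, while HIST1H2BK, HIST1H1C and HIST1H4I lie left of 0 in BM1 and above 0 in LM2.

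The members that were lower in BM1 and higher in LM2 numbered 10 of 23, where 13.6% of tested genes had this combination. The 10 include HIST2H2AA3 with HIST2H2AA4 and HIST1H4J with HIST1H4K, pairs that may not be separate observations. A further 6 were higher in both lines (33% of tested genes), 4 lower in both (36.2%) and 3 higher in BM1 and lower in LM2 (17.3%). HIST1H2BK, an H2B gene, had 175 FPKM in control and 95.8 in knockdown cells of BM1, against 36.8 and 63.0 in LM2. Its knockdown library was the lower of the pair in BM1 and the higher in LM2, with changes of -0.86 and 0.76. HIST1H1C, which encodes the linker histone H1.2, had 103 FPKM in control and 71.2 in knockdown cells of BM1, against 14.5 and 31.6 in LM2. HIST1H4I, an H4 gene, had 10.2 FPKM in control and 5.95 in knockdown cells of BM1, against 1.48 and 5.26 in LM2, the widest gap between the lines among tested members (changes of -0.68 and 1.34). In each of these genes the BM1 control was the highest and the LM2 control the lowest library. HIST1H3B, an H3 gene, went the other way, with 1.17 and 2.86 FPKM in BM1 and 0.613 and 0.522 FPKM in LM2. HIST2H2BA, which GENCODE 29 lists as a pseudogene, was at 0.670 FPKM in control and 1.71 in knockdown cells of BM1 and at 1.44 and 1.37 FPKM in LM2, a change of -0.044 that became 0.056 with quantile normalization. With 4 libraries the difference between lines in the response to knockdown cannot be tested.

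The contrast of lines asked which members differed between LM2 and BM1 over both treatments. HIST1H1C, HIST1H4H and HIST1H2AC were lower in LM2, and 0 members were called higher. HIST1H1C differed by -1.95 ± 0.37 (SE, log2 scale, limma adjusted p 0.0245) and was lower in LM2 under both treatments. HIST1H4H, an H4 gene, had 4.82 and 6.38 FPKM in control and knockdown cells of BM1, against 1.001 and 2.41 FPKM in LM2. Every LM2 value lay below every BM1 value, with a difference of -1.33 ± 0.26 (limma adjusted p 0.0282). HIST1H2AC differed by -1.32 ± 0.29 (limma adjusted p 0.0407), again lower in LM2 under both treatments. Of all tested genes 4.35% were called in this contrast (2.31% higher and 2.04% lower in LM2). At an unadjusted p below 0.05, limma gave 13 members lower and 0 higher, where 11.1% of all tested genes were lower and 11.2% higher. No member was called with a pseudocount of 0.1, quantile normalization, no filter, no treatment block or any library left out (a fit that also drops the block), and over the settings run the adjusted p of HIST1H1C ranged from 0.0169 to 0.86. A pseudocount of 0.5 also ended the call of HIST1H2AC (limma adjusted p 0.0576), and a filter of 5 FPKM left HIST1H4H untested, so each of these settings called 2 members. Both BM1 libraries lay above both LM2 libraries in 18 of 23 tested members, where 21.6% of tested genes did. The 18 include HIST2H2AA3 with HIST2H2AA4 and HIST1H4J with HIST1H4K, pairs that may not be separate observations. The latter pair is also among the 13. Of the 23, 7 averaged under 1 FPKM in LM2 and passed the filter through their BM1 levels, and all 7 are among the 18. Of these 7, 5 are also among the 13 lower at an unadjusted p below 0.05. With no filter, both BM1 libraries lay above both LM2 libraries in 28 of all 43 members, where 20.7% of all genes in the table did.

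The same difference was read within each treatment, from single libraries. Between controls, 14 of 23 members (4 of them among the 7 that passed through BM1) were at least 2-fold lower in LM2 and 0 higher. Of tested genes, 5.26% were lower and 6.98% higher by that much. The 14 include HIST2H2AA3 with HIST2H2AA4 and HIST1H4J with HIST1H4K, which may not be separate observations. These pairs are also among the 15 members counted below. Between knockdown libraries, 3 were at least 2-fold lower and 0 higher, where 4.63% of tested genes were lower and 4.41% higher. The LM2 control was the lowest of the 4 libraries in 15 of 23 tested members and in 25 of all 43, where 19.5% of tested genes and 20.1% of all genes in the table had it lowest. The LM2 change under knockdown and the difference between controls share this library, so they are not independent of each other. HIST2H2BE was the 1 tested member with its highest value in the LM2 knockdown library.

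**Figure D3:**
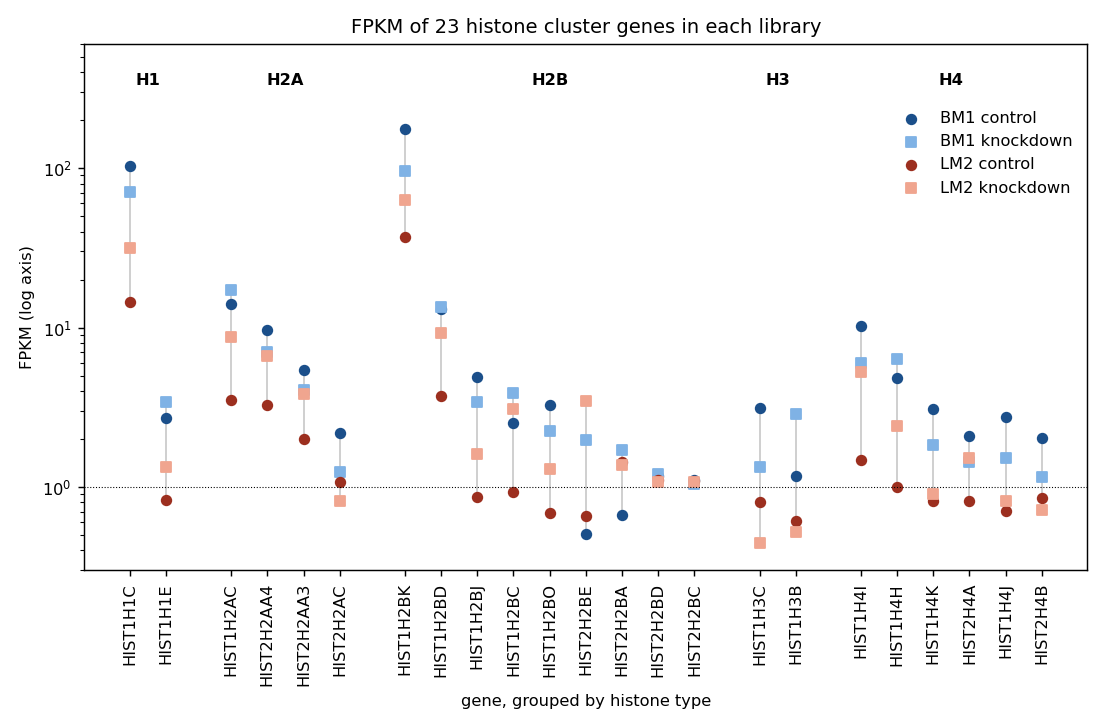
FPKM on a log axis (y axis) of the 23 tested members by type (x axis), 1 point per library, with the dotted line at 1 FPKM. The LM2 control is the lowest point in 15 of the genes, and HIST1H2BK and HIST1H1C lie above the rest.

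The remaining named members that passed the filter are given by type. HIST1H1E, which encodes the linker histone H1.4, had 2.70 FPKM in control and 3.40 in knockdown cells of BM1, and 0.827 and 1.34 in LM2, higher in knockdown in both lines. Its level was thus a small part of that of HIST1H1C, the other H1 gene among the members. Among H2A genes, HIST2H2AA3 had 5.41 and 4.07 FPKM in BM1 and 1.99 and 3.81 in LM2. Its ratios of knockdown to control were 0.752 in BM1 and 1.91 in LM2, against 0.732 and 2.03 for HIST2H2AA4. The RefSeq promoter windows of HIST2H2AA3 and HIST2H2AA4 hold the same sequence, slightly offset. The shared directions of this pair may thus not be separate observations. Among H2B genes, HIST1H2BD had 13.003 and 13.5 FPKM in BM1 and 3.70 and 9.26 in LM2. Its control and knockdown libraries were near each other in BM1 and far apart in LM2. HIST1H2BJ had 4.87 and 3.44 FPKM in BM1 and 0.860 and 1.60 in LM2, so that both BM1 libraries lay above both LM2 libraries. Among H4 genes, HIST1H4K had 3.10 and 1.84 FPKM in BM1 and 0.819 and 0.909 in LM2. HIST2H4A had 2.09 and 1.44 FPKM in BM1 and 0.812 and 1.53 in LM2, where the libraries of the lines overlapped. HIST2H4B, whose coding sequence is identical to that of HIST2H4A, had 2.03 and 1.15 FPKM in BM1 and 0.853 and 0.720 in LM2, and so was lower with knockdown in LM2 where its copy was higher, by a change of -0.11 that became 0.0054 with quantile normalization. None of these members passed the test in either contrast (limma, adjusted p from 0.0557 to 0.95).

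Low levels limit what can be read from most members. Of the tested members, 11 were under 1 FPKM in control and 6 in knockdown cells of LM2, against 2 and 0 in BM1. The 20 members below the filter had means from 0.0215 to 0.793 FPKM, and 14 of them were lower in the BM1 knockdown and 11 higher in the LM2 knockdown library. Among them were 5 of the 7 H3 genes, including HIST1H3H (1.42 and 0.603 FPKM in BM1, 0.467 and 0.443 in LM2) and HIST2H3D (0.775 and 0.579 FPKM in BM1, 0.430 and 0.230 in LM2). Near-identical copies add uncertainty. Among members matched to GENCODE 29, 4 pairs of coding sequences are identical, HIST1H4J and HIST1H4K among them. HIST2H2AA3 was not matched, so its coding sequence was not compared with that of HIST2H2AA4, although their RefSeq promoter windows hold the same sequence. How the authors' counting divided shared fragments is not stated in the labels. HIST2H3A and HIST2H3C, another identical pair, had the same values in LM2, 0.154 and 0.263 FPKM. The symbol HIST2H2AA4 belongs to 2 gene IDs, of which ENSG00000203812.2 was tested (9.59, 7.02, 3.27 and 6.62 FPKM) and ENSG00000272196.2 was near 0. GENCODE 29 lists HIST2H2BA, HIST2H2BB and HIST2H2BD as pseudogenes, although their symbols passed the rule.

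The members are given next by where they lie (table coordinates, GRCh37 per the submitters' processing notes). On chromosome 6, the 8 tested members between positions 26020718 and 26285866 had median changes of 0.27 in BM1 and 0.92 in LM2. Between 27093676 and 27115294, where HIST1H2BK, HIST1H2BJ and HIST1H4I lie, the medians of 3 members were -0.68 and 0.76. Between 27775977 and 27861621 they were -0.53 and 0.092 over 3 members, and on chromosome 1 between 149369722 and 149859466 they were -0.34 and 0.24 over 8 members. The 3 tested members in each of the middle and last chromosome 6 groups were all lower in the BM1 knockdown and higher in the LM2 knockdown library, while 1 of 8 in the other group was. In the last group, HIST1H4J and HIST1H4K share 81.2% and 100% of the 50-base stretches of their models with other members. They may thus not be separate observations, and their LM2 changes were only 0.092 and 0.070. HIST2H2BA lies apart on chromosome 1, and HIST4H4, an H4 gene below the filter, lies alone on chromosome 12, between 14920933 and 14924065. These groups were drawn after the values were seen and differ in gene models and levels.

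Genes around the histone message were read from lists. Of 10 tested histone variant genes outside the clusters, which give polyadenylated mRNA, 4 were called lower with knockdown and 0 higher. Of all tested genes, 2.76% were called lower and 2.71% higher. By direction alone, 10 variant genes were lower in BM1 and 9 in LM2, where 49.7% and 53.5% of all tested genes were. The median change of the variant genes was -0.85 in BM1 and -0.80 in LM2. Those called were H1F0, H2AFV, H1FX and H2AFX. H1F0, the linker histone H1.0, had 220 FPKM in control and 76.5 in knockdown cells of BM1, against 170 and 66.1 in LM2, a change of -1.43 ± 0.25 (limma adjusted p 0.0203). H2AFX, the variant phosphorylated at DNA breaks, had 93.5 FPKM in control and 43.6 in knockdown cells of BM1, and 98.5 and 44.6 in LM2. Of 20 S phase genes 3 were called lower and 0 higher, with list medians of -0.76 and -0.78. By direction alone, 19 were lower in BM1 and 20 in LM2. TK1 and TYMS, enzymes of nucleotide synthesis, were among those called lower. TYMS had 185 FPKM in control and 71.9 in knockdown cells of BM1, against 102 and 54.1 in LM2 (limma adjusted p 0.0444). Of 19 histone chaperone genes 2 were called lower and 0 higher, ANP32E (24.6 and 7.18 FPKM in BM1, 50.6 and 6.76 in LM2) and ASF1B (76.1 and 26.2 in BM1, 64.2 and 31.1 in LM2). The chaperone medians were -0.19 and -0.25, with 13 genes lower in BM1 and 15 in LM2.

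Among 16 genes of histone mRNA 3′ end processing and turnover, limma called 0 in the knockdown contrast, and 0 also had an unadjusted p below 0.05. The medians were 0.10 in BM1 and 0.055 in LM2. The genes furthest from 0 on average were ZCCHC6 (0.62), CASP8AP2 (0.56) and CPSF2 (0.50) on the log2(FPKM + 1) scale. SLBP had 52.9 FPKM in control and 45.4 in knockdown cells of BM1, against 40.1 and 40.0 in LM2. Among 9 genes of histone gene transcription limma called 0, with 3 lower and 0 higher at an unadjusted p below 0.05 (CDK2, CCNE1 and E2F1), where 12.5% of tested genes were lower. By the same measure 15 of 20 S phase genes, 6 of 10 histone variant genes and 6 of 19 chaperone genes were lower, against 0, 0 and 3 higher in the same order. NPAT, a coactivator of histone genes, had 1.89 FPKM in control and 5.66 in knockdown cells of BM1, against 6.25 and 6.70 in LM2 (limma adjusted p 0.244). The part of S phase genes in the values of the members was not tested.

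**Figure D4:**
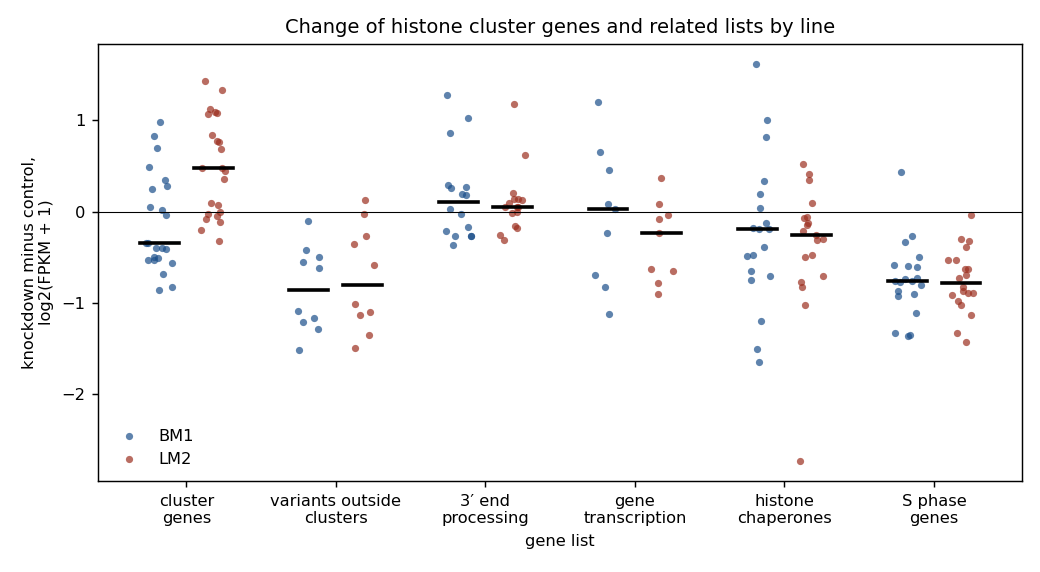
Change with knockdown on log2(FPKM + 1) (y axis) for the tested members and 5 gene lists (x axis), 1 point per gene, BM1 in blue and LM2 in red, with bars at the medians. The members have medians of -0.34 and 0.48, while variants outside the clusters and S phase genes have medians below 0 in both lines.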

How the data were processed

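Gene levels in 4 libraries were deposited by the authors as 1 table of FPKM values. The submitters' processing notes name STAR 2.5.3a, Cuffdiff 2.2.1 and GRCh37, with no role or order, and the sources used here do not give the annotation. Of 20369 entries, 40 with repeated gene IDs were left out. Genes with a mean of at least 1 FPKM (13928) were fitted as log2(FPKM + 1) with limma 3.58.1 in R 4.3.3, with line and treatment as terms and 1 residual degree of freedom. P-values were two-sided and Benjamini-Hochberg adjusted, and called below 0.05. Sharing a cell line pairs a knockdown with its control. Within a line a 2-fold rule was used, with no test. Nothing says the libraries are more than single cultures, so p-values measure no spread beyond these samples. For the knockdown term, the residual is how far the lines disagree in their change. Standard errors followed it only in part. HIST2H2BC, with changes of -0.041 in BM1 and -0.0074 in LM2, had 0.251. HIST2H2BE, with 0.99 and 1.43, had 0.261. HIST1H4I, with -0.68 and 1.34, the widest gap among tested members, had 0.424. limma draws each gene's variance towards that of all tested genes, so SE and p-values rest largely on this shared variance.

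The members and gene lists were chosen with earlier results of these data known. Named genes were HNRNPM, the 4 most abundant members of each type, called members, the 3 largest average increases and decreases, the 3 largest differences between lines each way, and the called and 3 most changed genes of each other list. One gene that this rule names is not reported here. Others named were chosen after their values were seen, as were the motifs, chromosome groups, model classes, head-to-head pairs, the count of the lowest library, the sums without HIST1H2BK and HIST1H1C, the alternative without HIST2H2BA, HIST2H2BC and HIST2H2BD, and the shift of 0.1 that counts as moved.

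Depth is an inference. In 1623 low genes, 36.2% to 44.1% of FPKM times model length lay within 0.02 of whole steps. The way of choosing the step was revised after its results, and depths from earlier work on these data, were seen, so its closeness to them is no check. In short genes 14.7% to 21.6% were whole, so fragment numbers of short members are rough, and no count test was run. The fit was tested on simulated data, where it recovered the effect sizes. The simulated noise was changed after early runs made no calls and finally set from the table's own variance, so that test is no evidence of power here. GENCODE 29 models were joined by gene ID (41 of 43 members). No coordinates were converted.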

Additional observations from a re-analysis of the deposited data

Results flagged for a closer look

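The following differ in direction between the lines in single pairs of libraries, and the differences were not tested. Values are the change in LM2 minus the change in BM1, knockdown minus control, on log2(FPKM + 1). The median change of the tested members differed by 0.82, that of H1 by 0.85, of H2A by 1.13, of H4 by 0.80 and of H3 by -0.20. H1 and H3 had only 2 tested genes each, which moved in opposite directions in BM1. The H3 median in BM1 was 0.0016, between 0.83 for HIST1H3B and -0.83 for HIST1H3C. Its direction there is thus not a shared one, and the H3 sum was below its control in both lines. Among genes higher in LM2 and lower in BM1, HIST1H4I differed by 2.02, HIST1H2BK by 1.62, HIST1H1C by 1.60, HIST2H2AA4 by 1.24, HIST2H2AA3 by 1.02, HIST1H2BJ by 0.89, HIST2H4A by 0.82 and HIST1H4K by 0.60. Of these, HIST2H2AA4 and HIST2H2AA3 may not be separate observations. Among genes higher in BM1 and lower in LM2, HIST1H3B differed by -0.92, HIST2H2BA by -0.74 and HIST2H2BD by -0.044. The last of these had values between 1.07 and 1.21 FPKM in all 4 libraries. With quantile normalization both of its changes turned sign, and the LM2 change of HIST2H2BA did too.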

How the results depend on the processing

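No called change of a member changed sign in the alternatives run, but most alternatives ended calls. The 1 member called in the knockdown contrast became 0 with a mean filter of 5 FPKM (which leaves HIST2H2BE out; limma gave 1 member higher at an unadjusted p below 0.05), no filter (2 higher), no replicate block (1 higher), a pseudocount of 0.1 (2 higher, 1 lower) and quantile normalization (2 higher). The 3 members called between lines became 0 with no filter (10 lower at an unadjusted p below 0.05), no replicate block (8 lower), a pseudocount of 0.1 (14 lower) and quantile normalization (12 lower). With each library left out in turn, which also drops the block so that 2 choices change together, calls ranged from 0 to 0 in both contrasts, the arm left with 1 library being assumed to vary like the other. Several of these settings emptied or thinned the calls over all genes as well: the knockdown contrast fell from 762 called genes to 0 without the block, without the filter and under quantile normalization, and to 27 with a pseudocount of 0.1. The contrast of lines fell from 606 to 11, 0, 104 and 216.

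The number of members at 2-fold in BM1 was 4 with a pseudocount of 0.1, 2 with 0.5 and 6 at 1.5-fold. In LM2 it was 3 without overlapping members and 10 at 1.5-fold. The BM1 median was -0.45 with a pseudocount of 0.1, -0.17 with no filter and -0.47 with a filter of 5. The LM2 median was 0.82 and 0.63 with pseudocounts of 0.1 and 0.5, 0.11 with no filter, 1.08 with a filter of 5, 0.59 with quantile normalization and 0.58 without HIST2H2BA, HIST2H2BC and HIST2H2BD. The cause of these shifts was not tested. For these 6 results the other 31 values were within the limits used for a change. Of the changes of single named genes 52 moved and 160 did not.

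Uncalled changes did change sign. Fits with a library left out drop the block. A knockdown change then also holds the difference between lines, and a line change that between treatments. Without the LM2 control the knockdown change was -1.10 for HIST1H1C, -0.17 for HIST1H2AC and -0.21 for HIST1H4H, against 0.27, 0.69 and 0.56 with all libraries. Without the BM1 knockdown library it was -0.30 for HIST1H1C and -0.0011 for HIST1H4H. Within each line, HIST1H2AC (0.28 in BM1 and 1.09 in LM2) and HIST1H4H (0.34 and 0.77) were higher in knockdown. HIST1H1C was lower in BM1 (-0.53) and higher in LM2 (1.07). The line change of HIST2H2BE, 0.36 with all libraries, became -0.13 when the BM1 control was left out and -0.35 when the knockdown library of LM2 was. Quantile normalization turned the BM1 changes of HIST1H2BD (0.052 to -0.023) and HIST2H2BD (0.019 to -0.075) and the LM2 changes of HIST2H2BA, HIST2H2BD (-0.025 to 0.085) and HIST2H4B. Size factors turned the BM1 change of HIST2H2BD to -0.0014.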
